A study of Homo sapiens with 12 samples.

Results

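The genes described here are 10 regulators that act downstream of the transcription factor ATF4, chosen by symbol from the first column of 3 results tables. All 10 were found, among 23292 symbols in each table. HEK293 cells, an established line from human embryonic kidney that the sample labels also call HEK293T, were treated for 6 h with vehicle (DMSO) or with 10 µM of AA263, AA263yne or AA263-5. The compounds belong to one phenylhydrazone series, AA263 being the parent, and were studied as activators of ATF6, a sensor of misfolded protein in the endoplasmic reticulum (ER). Each of the 4 groups had 3 samples, so RNA of 12 samples was sequenced, and all groups used unmodified cells of the same line.

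The integrated stress response begins when a kinase such as PERK phosphorylates the translation factor eIF2α. Most protein synthesis then slows, while a few mRNAs with short reading frames ahead of the main one, ATF4 among them, are translated better. ATF4 protein in turn raises transcription of amino acid transporters and synthesis enzymes, and of a second layer of regulators. This second layer is the subject here, with *PPP1R15B*, which is made constitutively, listed beside it. *DDIT3* encodes CHOP, *CEBPB* and *CEBPG* encode C/EBP family factors, and *ATF3* and *ATF5* encode further basic leucine zipper factors. *NUPR1* encodes a small chromatin cofactor, and *TRIB3* a pseudokinase that binds ATF4 and AKT. *CHAC1* encodes an enzyme that breaks down glutathione. *PPP1R15A* (GADD34) and *PPP1R15B* (CReP) encode subunits that direct protein phosphatase 1 to eIF2α and so end the response.

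The measurement used for each gene was the authors' mean normalised value, which averages the expression values of all samples after scaling for library size. It was identical in the 3 tables for every symbol (largest difference 0), so it was read as a mean over all 12 samples, vehicle and compounds together. The values sum to 36.6 M in each table. The depth of single samples is unknown here, no spread between replicates can be attached to any level, and no test was run. The other columns hold the authors' own comparisons of each compound with vehicle. These were not used, so the change of the regulators with AA263, AA263yne or AA263-5 was not analysed here. Since normalised values are never negative, the mean of any 1 group is at most 4 times the mean over the 4 groups, and this limit is given where it bears on an order of levels. Fixed marker lists were read for the nature of the cells, although being listed tells little, since genes of other cell types were listed too. All 9 genes reported for HEK293 cells were listed, with means from 27.7 for *PAX2* to 18797 for *VIM*. *PAX2* and *LHX1*, at 85.8, were below the median of all symbols, 99.5. Of 8 genes of other cell types, *INS*, *HBB* and *MYH7* were not listed, and *PTPRC* and *CD3E* were at 0.544 and 0.488. The highest was *COL1A1* at 397, above *PAX2* and *LHX1*.

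A composite element that ATF4 binds together with a C/EBP partner, written TGATGNAAN, was searched on both strands in RefSeq promoter windows of GRCh38.p14, each running from 250 bases before to 50 bases after a RefSeq transcript start. Of the 10 regulators, 9 had at least 1 window (17 windows in all) and *NUPR1* had none. The element was present in 4 windows, 1 for each of *CHAC1*, *CEBPG*, *PPP1R15B* and *ATF3*. Over all 35116 windows the share that held it was 3.61%, and over the 27305 genes with a window it was 4.45%. The stretches around these matches are shown because the list was drawn up around ATF4. Each is 5′ to 3′ on the strand of the gene, with the match in capitals.

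*CHAC1*, + strand, chr15:40953251-40953279: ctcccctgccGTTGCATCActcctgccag

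*CEBPG*, + strand, chr19:33374061-33374089: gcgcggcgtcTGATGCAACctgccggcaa

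*PPP1R15B*, - strand, chr1:204412026-204412054: ccgccccggcTGATGCAACctcacgctgc

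*ATF3*, + strand, chr1:212565206-212565234: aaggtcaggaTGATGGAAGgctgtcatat

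The matches of *CEBPG* and *PPP1R15B* hold the same 9 bases, TGATGCAAC, and that of *CHAC1* is their reverse complement, so in *CHAC1* the element reads on the strand opposite to the gene. The *ATF3* match differs from them within the positions that the element leaves free. The first base of the match lay 42 bases before the RefSeq transcript start of its window in *CEBPG*, 191 in *ATF3*, 210 in *CHAC1* and 227 in *PPP1R15B*. The GENCODE gene spans given further on can open at another start, and in *CEBPG* and *CHAC1* the match lies inside that span. *ATF3* and *CEBPG* have a pair of windows each, and in each gene 1 of them held the match. For *DDIT3*, *TRIB3*, *ATF5*, *CEBPB* and *PPP1R15A* these letters were not in the windows searched, which says nothing of sites farther away. A match is a description of the letters and was not tested for binding.

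An ATF/CRE site, TGACGTCA, was searched in the same windows after the first search had been seen. It was found in 1 of the 17 windows, that of *PPP1R15A*, 58 bases before the RefSeq start of the window and inside the GENCODE gene span, and in 1.85% of all windows.

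*PPP1R15A*, + strand, chr19:48872353-48872380: cctctcttcgTGACGTCAgcacgccggg

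GC content of the windows spanned a wide range. It was lowest in *ATF3*, at 46.3% and 48.0% in its windows, and highest in *CEBPG*, at 77.3% and 79.7%, against a median of 58.7% over all windows. *CEBPB* and *TRIB3* lay close to *CEBPG*, between 75.3% and 77.0%, and *DDIT3* was at 63.3% in both of its windows.

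The mean normalised values of the 10 regulators ran from 67.5 to 2605, a span of 38.6-fold, with a median of 758. The values are given as deposited. They were taken to be scaled read numbers that had not been divided by length, although the methods name RPKM, a measure already divided by length, as the input, and this could not be settled from the tables. The median of the 23269 symbols used was 99.5, and 9 of the 10 regulators were above it, the exception being *NUPR1*. Many symbols were near 0, and of the 11623 symbols with a mean of at least 100 the median was passed by 3 regulators, *ATF3*, *PPP1R15A* and *PPP1R15B*. Together the regulators held 0.0253% of the summed values of all symbols. The plot of levels gives each gene with the limit for a single group.

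**Figure D1:**
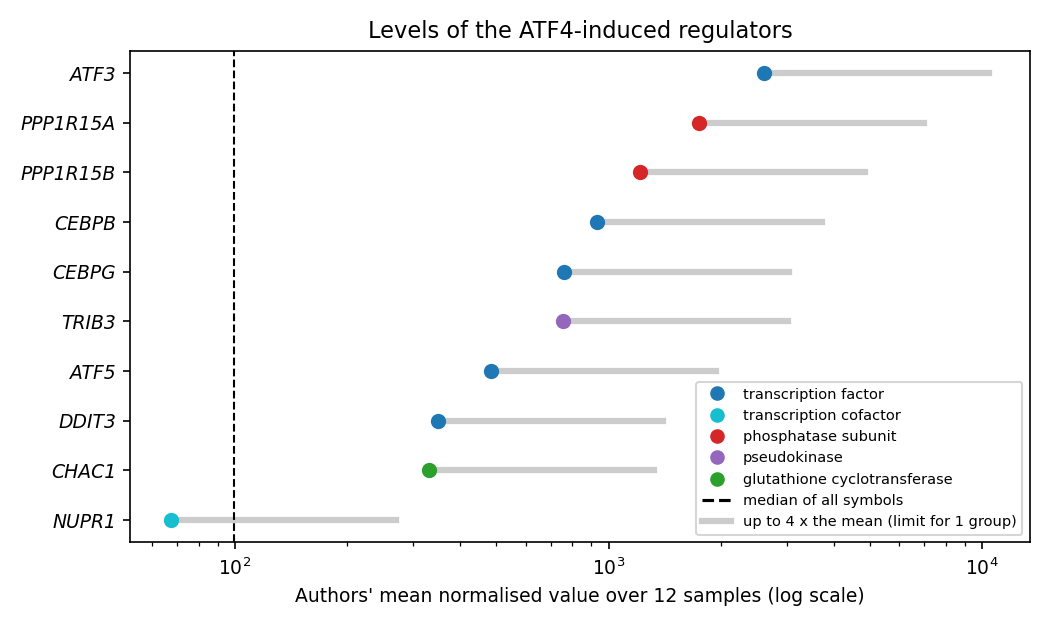
Authors' mean normalised value over 12 samples for each regulator (points, log scale, coloured by role), with a grey bar up to 4 times the mean, the highest mean that any 1 group could have had. *ATF3* was highest at 2605 and *NUPR1* lowest at 67.5, and *NUPR1* alone lay below the median of all symbols (dashed line, 99.5).

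*ATF3*, on chromosome 1 from 212565334 to 212620777 of GRCh38, had the highest mean, 2605, which was above 87.4% of all symbols. It encodes a factor that mostly represses transcription and is induced by many stresses. The phosphatase subunits followed. *PPP1R15A* (chromosome 19, 48872212 to 48876059), the inducible one, had a mean of 1747, above 82.3% of symbols. *PPP1R15B* (chromosome 1, 204396492 to 204411887), which is made constitutively, had a mean of 1211, above 76.9%.

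The C/EBP genes came next. *CEBPB* (chromosome 20, 50190830 to 50192668), a gene with 1 exon, had a mean of 930, above 73.1% of symbols. *CEBPG* (chromosome 19, 33373685 to 33382686), whose product pairs with ATF4, had a mean of 759. *TRIB3* (chromosome 20, 362835 to 397559) was almost level with it at 757, so that these neighbours in the order cannot be ranked without a spread.

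The lower part of the order held *ATF5* (chromosome 19, 49928702 to 49933935) with a mean of 485, *DDIT3* (chromosome 12, 57516588 to 57521737, minus strand) with 349, and *CHAC1* (chromosome 15, 40952962 to 40956512) with 331. *DDIT3* and *CHAC1* were above 61.0% and 60.5% of all symbols, and above 22.0% and 21.0% of the 11623 symbols with a mean of at least 100. CHOP, the product of *DDIT3*, is the best known of these regulators and promotes cell death under prolonged ER stress. *NUPR1* (chromosome 16, 28532708 to 28539008, minus strand) had a mean of 67.5, above 47.0% of symbols, and no group could have had a mean of *NUPR1* above 270.2.

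Under that reading, levels of different genes were compared per kilobase of the canonical transcript in GENCODE 44, to which all 10 symbols matched. On this scale the median of the regulators was 281 and that of 12603 protein-coding genes (those with a mean from 10 upwards) was 222, with 7 of the 10 regulators above it. *ATF3* was again highest, at 1343 per kilobase, above 84.9% of these coding genes. *PPP1R15A* had 743, *CEBPB* 506, *DDIT3* 387 and *TRIB3* 321 per kilobase. Below them, *ATF5*, *PPP1R15B*, *CHAC1* and *CEBPG* lay close together, between 203 and 241. *DDIT3*, whose transcript of 903 bases is the shortest of the list, moved from the eighth place by mean to the fourth place per kilobase, and *PPP1R15B*, with 5259 bases, from the third place to the seventh.

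*NUPR1* stood apart at 12.8 per kilobase, above 9.89% of the coding genes. On this scale the highest value that 1 group could have had, 51.1, lay under the mean of each of the other regulators. This does not hold for other lengths. Its canonical transcript has 5291 bases, of which 246 code for protein, and the length that the authors counted reads over is not known. Per kilobase of coding sequence *NUPR1* had 275, still the lowest, with *CHAC1* next at 497, but its limit of 1098 for 1 group lay above the means of 7 of the 9 other regulators. On that scale *ATF3* stayed first with 4798, *CEBPG* rose to the second place with 1686, and 8 of the 10 regulators lay above the median coding gene at 536.

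**Figure D2:**
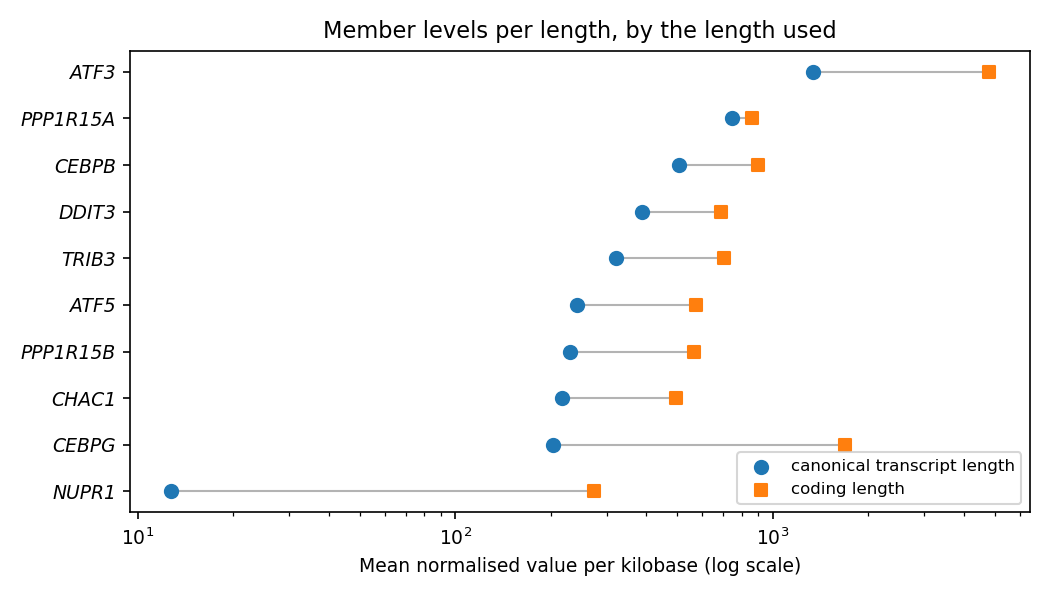
Mean normalised value per kilobase (log scale) of each regulator, by the length of the canonical transcript (circles) and of its coding sequence (squares). *ATF3* was highest and *NUPR1* lowest on both scales, while *CEBPG* went from 203 to 1686 because 450 of its 3730 bases code for protein.

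Some of the regulators have close relatives or fixed partners, which allows comparison within families. *PPP1R15A* was 3.23-fold higher than *PPP1R15B* per kilobase of transcript and 1.53-fold higher per kilobase of coding sequence. The catalytic subunits that both of them recruit were listed as well. *PPP1CA* stood at 6665 per kilobase of transcript, 8.97-fold above *PPP1R15A* and 29.0-fold above *PPP1R15B*, and by coding length 11.1-fold and 16.9-fold. As deposited these ratios were 5.42 and 7.82. *PPP1CC* was 3.58-fold above *PPP1R15A* by transcript length and 8.12-fold by coding length. *PPP1CB*, at 352, was lower than *PPP1R15A* per kilobase of transcript and higher per kilobase of coding sequence (1764 against 864).

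Within the C/EBP family the order of *CEBPB* and *CEBPG* depended on the length used, with 506 against 203 per kilobase of transcript and 898 against 1686 per kilobase of coding sequence. *CEBPA*, which encodes the founding member of the family, was lower than both on either scale, at 155 and 376. *CEBPE* was not listed. *DDIT3*, whose product forms dimers with C/EBP proteins and keeps them from their usual sites, stood at 0.766 times the level of *CEBPB* per kilobase of transcript and at 0.767 times per kilobase of coding sequence. As deposited, with no division by length, the ratio was 0.376. *CEBPZ*, whose symbol RefSeq also lists as an alias of *DDIT3* although it is a gene of its own, had 1220 per kilobase of transcript, and the tables list both symbols separately.

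*TRIB3* was 9.98-fold higher than its relative *TRIB2* per kilobase of transcript and 5.18-fold higher per kilobase of coding sequence, but 2.93-fold higher by the shortest coding transcript of each gene, a length added after the data were seen. By transcript length *TRIB2* could not have exceeded 129 in any group, which is under the mean of *TRIB3* at 321. By coding length this limit was 544, under the 705 of *TRIB3*. By the shortest coding transcript it was 674, above the 494 of *TRIB3*. That transcript of *TRIB2* has 830 bases, fewer than the 1029 that code for protein in its canonical transcript. *AKT1*, the kinase that TRIB3 binds, was 4.08-fold above *TRIB3*. *CHAC1* went the other way, at 0.652 times the level of *CHAC2*, its constitutive relative, per kilobase of transcript and 0.628 times per kilobase of coding sequence, but at 1.16 times by the shortest coding transcript, so their order is not settled. *ATF3* was above *JDP2*, a related repressor, 86.2-fold per kilobase of transcript and 28.0-fold per kilobase of coding sequence, and below its dimer partner *JUN*, which was 2.04-fold and 1.87-fold higher, and 3.43-fold as deposited. By the shortest coding transcript, of 482 bases for *ATF3*, this order turned, and *JUN* stood at 0.507 times the level of *ATF3*. These 482 bases are fewer than the 543 that code for protein in the canonical transcript of *ATF3*. *NUPR2* was not listed.

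*ATF4*, which stands above the regulators in the pathway, had a far higher level than any of them. Its mean was 28565, or 20130 per kilobase of transcript, which was 15.0-fold above *ATF3* and 52.0-fold above *DDIT3*. Per kilobase of coding sequence these ratios were 5.65 and 39.4. The ratio to *DDIT3* was 81.7 as deposited and 93.4 by the shortest coding transcript. No group could have had a mean of *ATF3* above 5372 per kilobase of transcript, or above 19191 per kilobase of coding sequence against 27127 for *ATF4*. No group mean of *ATF3*, or of any other regulator on the list, could thus have reached the mean of *ATF4* over all 12 samples. The mean of *ATF4* in each group is unknown, so this gives no order within a group. *ATF5*, the closest relative of *ATF4*, was 83.4-fold below it by transcript length and 47.4-fold by coding length. The 6 upstream genes, which are the eIF2α kinases, *EIF2S1* and *ATF4*, had a median of 496 per kilobase. The lowest levels per kilobase of transcript among them were those of *EIF2AK2*, which encodes the kinase PKR, at 86.4 and of *EIF2AK3*, which encodes PERK, at 156. As deposited, *EIF2AK3* had the lower mean of this pair, 705 against 861. It was also the lower by coding length, 211 against 521, and by the shortest coding transcript, 156 against 562, so *EIF2AK2* was lowest by canonical transcript only. *EIF2AK1* was the highest kinase gene by canonical transcript, at 1150 per kilobase, and by coding length, at 2684. *EIF2AK4* had 430 and 481 on these scales. By the shortest coding transcript *EIF2AK4* was 3.01-fold above *EIF2AK1*, but that transcript has 687 bases against 4947 that code in the canonical one.

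The 15 other ATF4 targets, mostly amino acid transporters and enzymes of serine, asparagine and one-carbon metabolism, had a median of 1785 per kilobase against 281 for the regulators. Of these, 13 lay above the median regulator and 9 above *ATF3*, the highest regulator. *SHMT2* and *PHGDH*, enzymes of one-carbon and serine metabolism, had the highest means as deposited, 20150 and 16042, and also the highest levels per kilobase of transcript, 9342 and 8597. *DDIT4* and *VLDLR* had the lowest means as deposited, 753 and 263, while per kilobase *VLDLR* and *SLC7A11* were lowest, at 28.5 and 99.5. By coding length 7 of the 15 were above *ATF3*, and by the shortest coding transcript, of 482 bases for *ATF3*, 4. In the 12 partner and family genes, of which 10 were listed, the median was 786 per kilobase. The plot of the pathway gives all of these values.

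**Figure D3:**
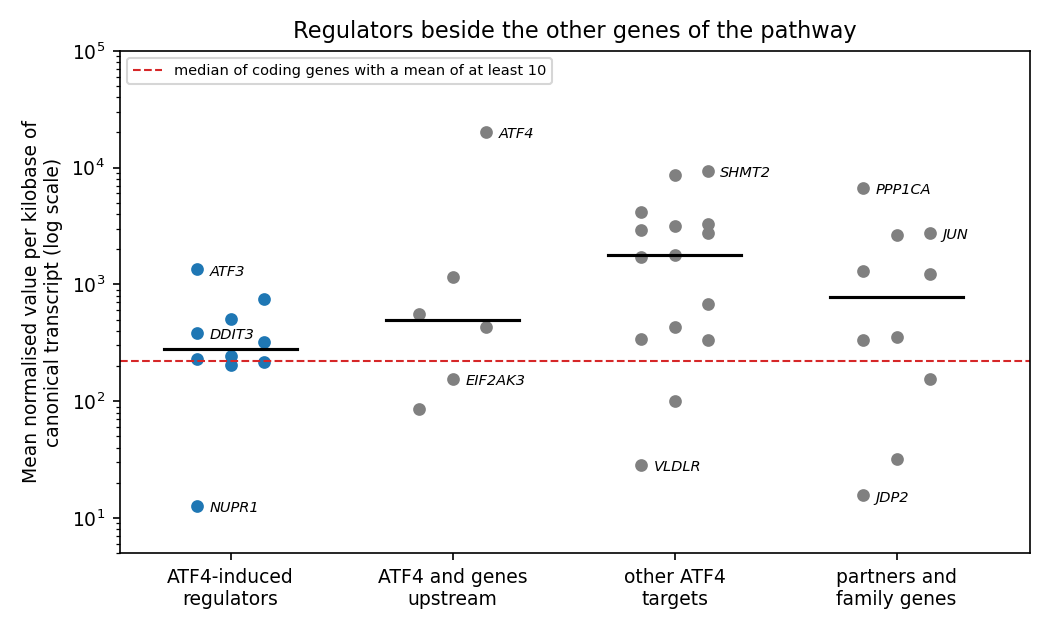
Mean normalised value per kilobase of canonical transcript (log scale) for the 10 regulators (blue) and for 3 other lists of pathway genes (grey), 1 point per gene, with the median of each list as a black bar. The regulators lay around a median of 281, close to the median coding gene (dashed line, 222), while *ATF4* was at 20130 and the other ATF4 targets had a median of 1785.

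Reading frames ahead of the main one are the feature by which mRNAs such as that of ATF4 escape the block on translation, and they were counted in the canonical transcripts from the annotated leader (the 5′ UTR). Of the 10 regulators, 6 had at least 1 AUG in the leader, namely *DDIT3*, *ATF5*, *PPP1R15A*, *PPP1R15B*, *TRIB3* and *CEBPG*. Of the 10426 matched coding genes whose mean was 100 or more, the 10398 whose annotated coding sequence opens with ATG were used for comparison. Among these, 40.8% had one, and among the 6740 of these whose leader was between 67 and 410 bases long, the range of the regulators, 44.2% did. The median leader of the regulators was 222 bases against 140 for the 10398 genes. The density of AUGs was 0.502 per 100 bases in the regulators, 0.509 in the 10398 genes and 0.435 in the 6740 genes of like leader length. These counts describe 10 genes and were not tested.

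*DDIT3* had 3 upstream AUGs in a leader of 177 bases. The first opens a frame of 34 codons and the second, in the same frame, one of 31 codons. Their shared stop codon begins 41 bases before the main start codon. The third opens a frame of 73 codons that runs past the main start in another frame. *ATF5* had 2, one with a frame of 3 codons and one with a frame of 59 codons that overlaps the main start. *ATF4* had the same arrangement with 1 more AUG, namely frames of 1, 3 and 59 codons, of which the last overlaps the main start. Frames that overlap the main start were found in 12.6% of the 10398 genes.

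The phosphatase subunits each had 2 upstream AUGs with frames that end before the main start. In *PPP1R15A* these had 22 and 26 codons, and the stop codon of the second begins 29 bases before the main start codon. In *PPP1R15B* they had 8 and 51 codons, and the stop codon of the second begins 78 bases before the main start codon. *TRIB3* had frames of 77 and 14 codons in a leader of 410 bases, the longest of the list. In *CEBPG* a single AUG was followed at once by a stop codon, a frame of 1 codon that begins 92 bases before the main start. *ATF3*, *CEBPB*, *CHAC1* and *NUPR1* had 0 upstream AUGs in leaders of 174, 204, 113 and 67 bases. The leader depends on which transcript is taken, and translation was not measured.

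**Figure D4:**
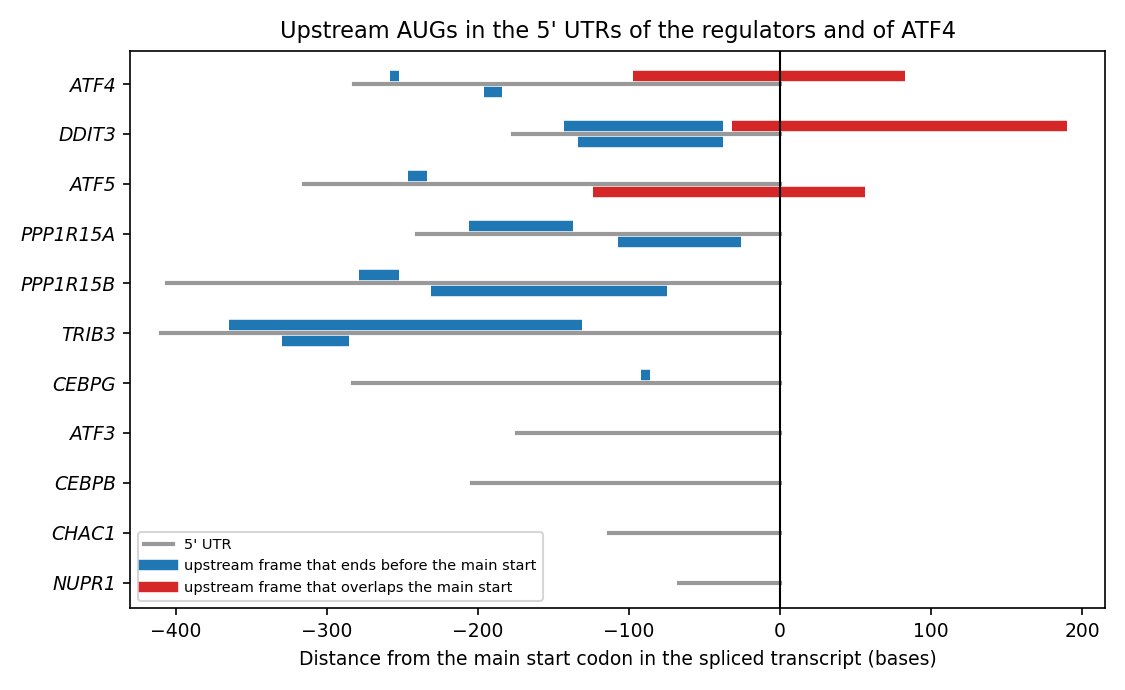
Leaders (grey lines) and upstream reading frames (bars from AUG to the end of the stop codon) of *ATF4* and the 10 regulators, by distance in bases from the main start codon at 0 in the canonical GENCODE 44 transcripts. Frames that overlap the main start (red) were found in *ATF4*, *DDIT3* and *ATF5*, frames that end before it (blue) in these and in 4 more regulators, and 4 regulators had none.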

How the data were processed

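Total RNA from 12 samples of HEK293 or HEK293T cells (both names are used in the labels and the methods) was sequenced after polyA selection and dUTP strand marking per the labels. The authors mapped the reads to GRCh38.p7 in DNAstar SeqManPro, quantified expression in ArrayStar with QSeq, and compared compounds with vehicle in DESeq2 (version 1.40.1 in the submitters' processing notes, which name GRCh37 beside GRCh38). The annotation used for counting is not given in the sources used here.

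Each deposited signal is the authors' mean over all samples of values divided by DESeq2's size factors. The methods name RPKM as the input of that fit. RPKM would sum to 1000000 if every transcript had 1 kilobase, and the deposited values sum to 36569738; the input was not settled, and if it was RPKM the values per kilobase given here are divided by length a second time. The tables also hold the authors' log2 fold changes, standard errors, Wald statistics, p-values and adjusted p-values for each compound against vehicle. These columns are the authors' own comparisons and were not used. No columns of single samples were used, so the planned test of the response to each compound was not run. Counting error and replicate error are unknown for every value.

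In each table, 23 symbols read as dates or plain numbers and were left out. Transcript length, coding length without the stop codon, leader and exons came from the canonical transcript in GENCODE 44 on GRCh38, matched by symbol, older symbols included, for 73.2% of symbols and for 92.1% of those with a mean of at least 100. Promoter windows came from RefSeq on GRCh38.p14. The searches for motifs and reading frames were tested on simulated sequences. Python 3.11.15 and pandas 2.3.3 were used. The members and lists were chosen with earlier results of these data known. Named genes are the members, family genes of a member, and the 2 highest and 2 lowest of each pathway list. *PPP1CB*, *PPP1CC*, *AKT1*, *EIF2AK4* and *SLC7A11* are named beyond that rule, a choice made with their values in view. *EIF2S1* is also named beyond it, without a value.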

Additional observations from a re-analysis of the deposited data

How the results depend on the processing

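The median of the members' means was 758 in each of the 3 tables. Their median rank, above 70.1% of all symbols, was 55.4% among symbols with a mean of at least 10 and 40.1% among those with a mean of at least 100. The median per kilobase, 281 by canonical transcript, was 697 by coding length and 456 by the shortest coding transcript, a length added after seeing the data. That transcript can be shorter than the canonical coding sequence, as in *ATF3*, *ATF5*, *ATF4*, *TRIB2* and *EIF2AK4*. *ATF3* was first and *NUPR1* last by all 3 lengths, and the places between them changed. Of the 9 members with a promoter window, 4 had a match to TGATGNAAN, which 4.45% of all genes with a window hold. The core TGATG was also found in 4, and 37.7% of all genes hold it, so that count is near the background. TGATGCAAT was found in 0 (0.293% of genes) and TGACGTCA, added after seeing the data, in 1 (2.25% of genes). No paired analysis was possible because no columns of single samples were used; for the same reason the alternatives planned for the response to each compound, namely a filter, another normalization and leaving out replicates, were not run.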
